A study of Sus scrofa with 6 samples.

Results

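The genes described here encode the translation initiation factors of the pig, taken from the series' expression table as every gene whose symbol begins with EIF and a digit from 1 to 6, with the eIF2 alpha kinases (EIF2AK genes) left out. The rule found 48 genes of the 30376 in the table. RNA of 4-cell pig embryos was captured on oligo(dT) beads and sequenced. The HT group (3 libraries) had been cultured at 41.5 °C and the Control group (3 libraries) at 38.5 °C, in both cases for 4 days. All embryos of both groups came from oocytes activated with direct-current pulses of 120 V, and no sperm is named in the labels, so both groups share electrical activation. The labels' protocols speak of about 300 samples in lysis buffer, without saying how many embryos made up a library. The stated question of the series is what high temperature does to zygotic genome activation, the switch from RNA stored in the oocyte to RNA made by the embryo. No label says that the libraries of a group are separate cultures, and the spread behind each p-value, that of the 3 libraries of a group, may therefore be technical only.

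Initiation is the step at which a ribosome is placed on the start codon of an mRNA. eIF4E binds the cap at the end of the mRNA, eIF4G holds the cap-bound complex together and eIF4A unwinds the RNA. The small ribosomal subunit arrives with eIF1, eIF1A, eIF3, eIF5 and eIF2, which carries the initiator tRNA, and eIF5B then lets the large subunit join. An oocyte makes little or no new RNA at the end of its growth, so the early embryo depends on the translation of stored mRNA. EIF1AX, the X-linked gene of eIF1A, is widely used as a marker of genome activation in pig and cattle embryos.

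Total counts were 28892695, 28668286 and 28114005 in the HT libraries and 30079385, 29038434 and 28869484 in the Control libraries, and 16056 genes had enough reads to be tested. All 8 listed oocyte and early embryo markers were present, with summed levels of 2359, 2609 and 2549 TPM in HT libraries and 2922, 2919 and 2692 TPM in Control libraries (TPM is a transcript abundance corrected for gene length, with an equal sum in every library). Of 11 listed cumulus and granulosa markers, 10 were in the table, FSHR and CYP11A1 were at 0 in every library, and the sum was 12.0, 12.7 and 15.0 TPM in HT libraries and 7.72, 11.2 and 11.6 TPM in Control libraries. The 6 blood and stroma markers summed to 3.70, 2.90 and 3.60 TPM in HT libraries and 2.87, 4.05 and 4.48 TPM in Control libraries. Transcripts of the mitochondrial genome took 27.3%, 25.5% and 24.5% of the counts of HT libraries and 24.2%, 21.5% and 22.0% of those of Control libraries.

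The initiation factor genes took 0.883%, 0.765% and 0.582% of all TPM in HT libraries and 0.849%, 0.760% and 0.624% in Control libraries. The ranges of the groups overlapped, and in both groups replicate 1 was highest and replicate 3 lowest. By mean TPM over the 6 libraries, 15 genes were at 100 or more, 19 between 10 and 100, 11 between 1 and 10, and 3 below 1. EIF1 was the most abundant in every library, at rank 32 to 54 among all genes. The 3 below 1 TPM were EIF1AY, EIF4EBP3 and EIF2D. EIF1AY, the Y-linked gene of eIF1A, had 0 counts in every library, which allows up to 3 counts, or 0.104 to 0.107 counts per 1000000 in HT libraries and 0.0997 to 0.104 in Control libraries (counting error only). EIF4EBP3 and EIF1AY had too few reads to be tested, which left 46 genes. The annotation marked 45 of the 48 as protein-coding and 3 (EIF3B, EIF2B4 and EIF4B) as long noncoding RNA genes. The spans of 11 of the 48 overlap a gene on the opposite strand, and for 3 of them the partner had more counts in all libraries together: BANF1 (79198 against 8090 for EIF1AD), ACYP1 (5341 against 2583 for EIF2B2) and KLHL15 (20343 against 16391 for EIF2S3). The library kit does not mark strand, so the values of these 3 are uncertain.

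**Figure D1:**
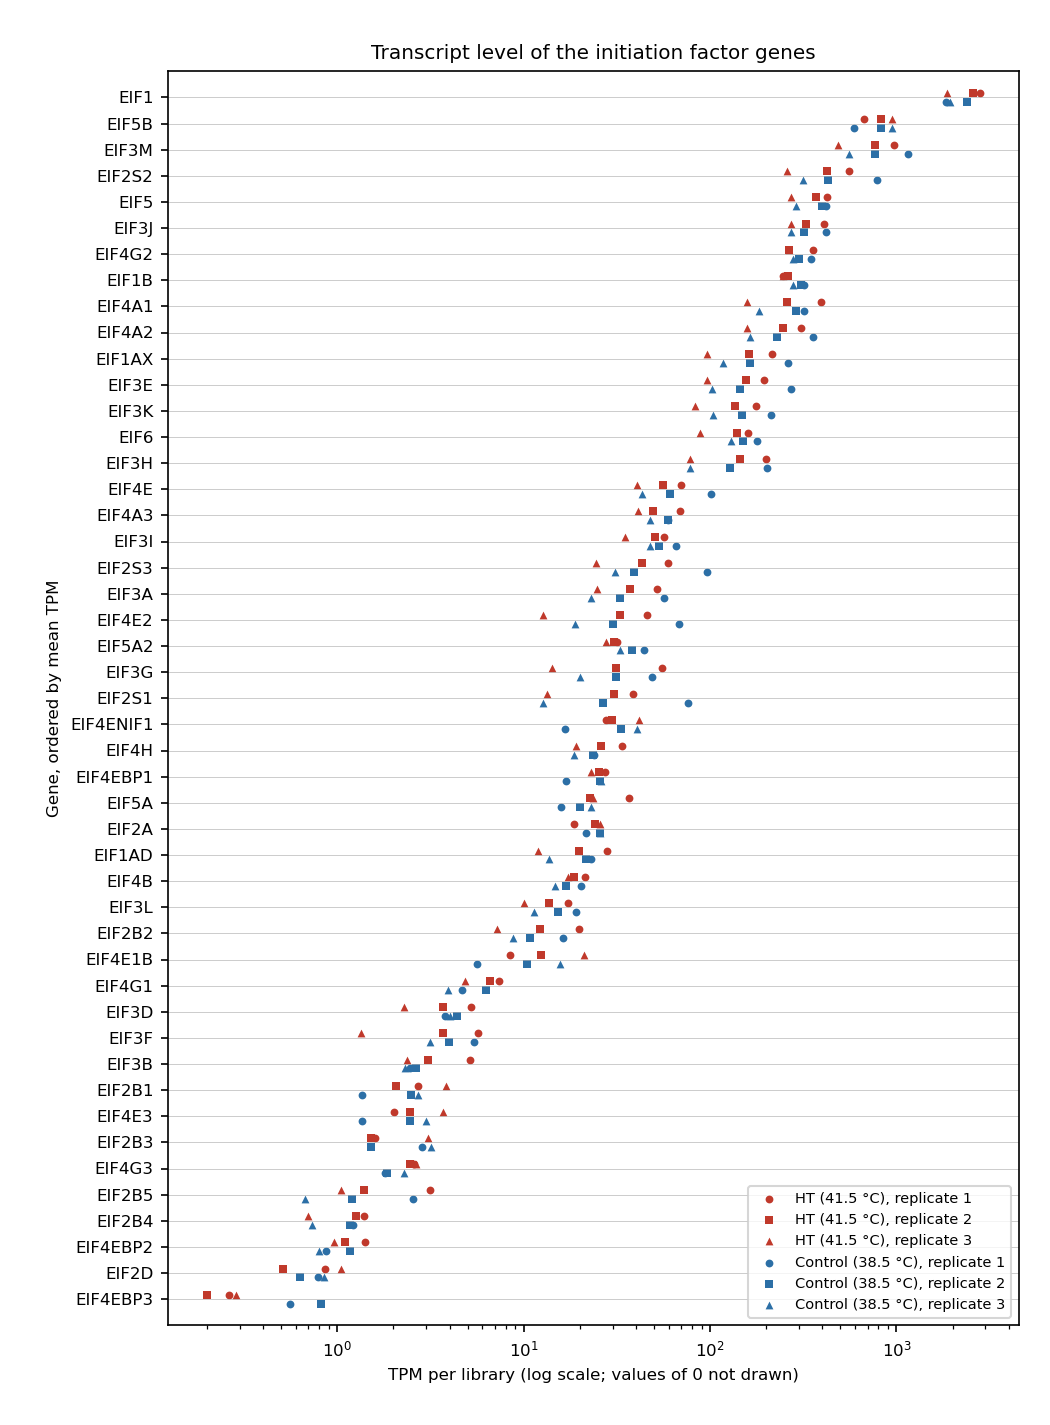
Level of each initiation factor gene in TPM (log axis, corrected for gene length), ordered by mean over the 6 libraries, with 1 point per library and colours for HT (41.5 °C) and Control (38.5 °C). EIF1 stood highest in every library, most genes had points of both groups interleaved, and EIF1AY, at 0 in every library, is not drawn.

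No initiation factor gene passed the test between HT and Control embryos. With edgeR's quasi-likelihood test and Benjamini-Hochberg adjustment over all 16056 genes, 0 of 46 were called and the adjusted p was 0.999923 for each. At an unadjusted p below 0.05, edgeR gave 0 of the 46, against 297 of all tested genes (1.85%), and over all tested genes it called 0 (0%). With the replicate number added to the edgeR model, 8 of the 46 had an unadjusted p below 0.05. That is a larger share than the 9.25% of all tested genes, and 0 of the 46 were called. DESeq2, run as an alternative, also called 0 of these genes. The log2 fold change (HT over Control) was above 0 for 16 genes and below 0 for 30, where 47.5% of all tested genes were above 0. Its median was -0.12, against -0.02 over all tested genes, and its median size was 0.19, against 0.20. The count above 0 changed with single libraries: it was 35 of 46 without Control replicate 1 and 27 without HT replicate 3. The share of all tested genes above 0 in those fits was not computed. With library totals in place of TMM scaling, 23 of 46 were above 0, where 61.6% of all tested genes were. The share of the 46 was therefore below that of all tested genes under that scaling too.

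The precision of the comparison differed between genes. The 95% interval lay within a 2-fold change either way for 22 of the 46 genes (49.7% of all tested genes) and within a 4-fold change for 45 of 46 (91.8% of all tested genes). The exception was EIF2S1, whose interval ran from -2.29 to 0.96, so a level more than 4-fold lower in HT embryos lay inside it. In 39 of 46 genes the ratio of the highest to the lowest library exceeded the fold between the group means in both groups, as it did for 82.0% of all tested genes. On the TMM-scaled counts of the test, all 3 HT libraries lay above all 3 Control libraries for EIF4G3 alone (3.66% of all tested genes). They lay below them for EIF1B and EIF2A (4.05% of all tested genes). That made 3 genes without overlap in either direction (7.71% of all tested genes). In TPM, the groups of EIF2A overlapped and those of EIF5A2 did not. The share of all tested genes without overlap in TPM was not computed.

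**Figure D2:**
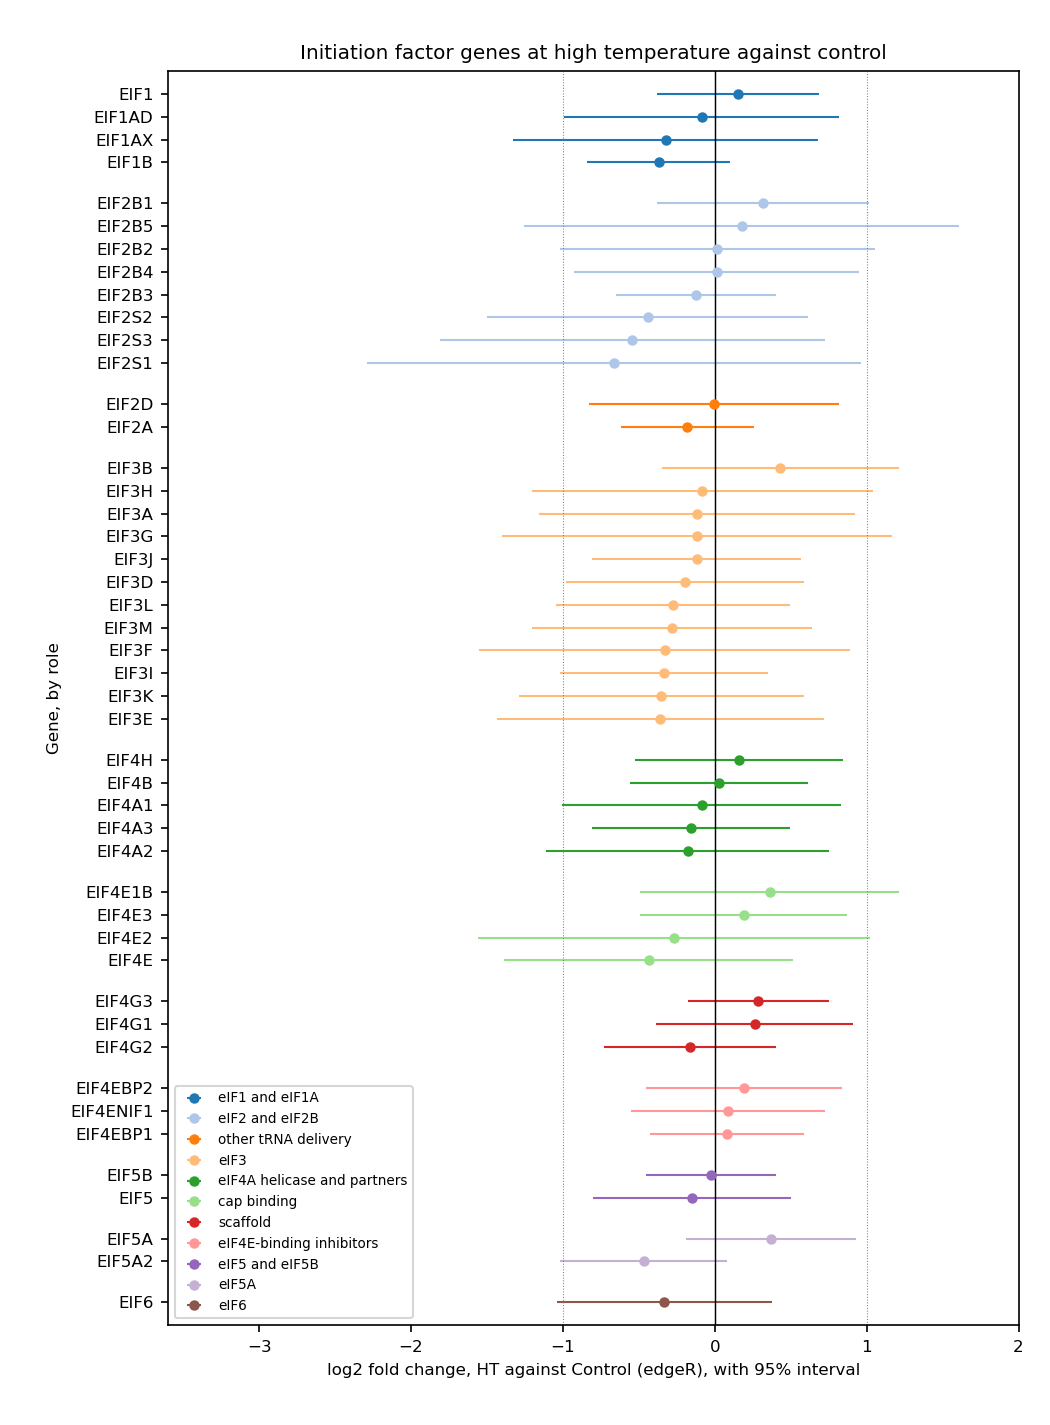
Log2 fold change of HT over Control for the 46 tested initiation factor genes, grouped by role, with points for the edgeR estimate and bars for its 95% interval. Every interval crosses 0, and the widest, that of EIF2S1, runs from -2.29 to 0.96.

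EIF1AX (chromosome X, 16429625 to 16449581, Sscrofa11.1) had 215, 162 and 96.5 TPM in HT libraries and 261, 164 and 117 TPM in Control libraries. The groups overlapped: the lowest library was HT replicate 3, the highest was Control replicate 1, and replicate 2 was alike in both. On the scale used for the test, counts per 1000000 of the TMM-scaled library size (CPM), the gene averaged 523 ± 217 CPM in HT embryos and 654 ± 350.0 CPM in Control embryos (SD, n = 3 each). The log2 fold change was -0.32 (SE 0.44, 95% interval -1.33 to 0.68). Without Control replicate 1 it was 0.19, and without HT replicate 1 it was -0.64, so its sign rested on a single library.

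Of the other genes of the eIF1 group, EIF1, whose product guards the choice of the start codon, had 2801, 2566 and 1863 TPM in HT libraries and 1839, 2393 and 1928 TPM in Control libraries. Its log2 fold change was 0.15 (SE 0.23, 95% interval -0.38 to 0.69), and the groups overlapped. EIF1B, which encodes a close relative of eIF1, had 109, 114 and 97.7 CPM in HT libraries and 165, 134 and 115 CPM in Control libraries. Every HT library was below every Control library, although HT replicate 2 and Control replicate 3 nearly met. The log2 fold change of EIF1B was -0.37 (SE 0.20, 95% interval -0.84 to 0.10, edgeR adjusted p = 0.999923). In TPM, EIF1 exceeded EIF1B by 11.4, 9.81 and 7.61 times in HT libraries and by 5.78, 7.74 and 6.93 times in Control libraries, and these ranges overlapped. The span of EIF1B lies wholly opposite that of an uncharacterized gene with 39 counts in all libraries, against 21103 for EIF1B. EIF1AD, whose product resembles eIF1A, had 11.9 to 28 TPM in HT libraries and 13.7 to 23.0 TPM in Control libraries.

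The genes for the subunits of eIF2 were present at unequal levels. EIF2S2, the beta subunit, had 555, 422 and 259 TPM in HT libraries and 783, 427 and 316 TPM in Control libraries. EIF2S1, the alpha subunit and the one that stress kinases phosphorylate, had 38.4, 30.5 and 13.4 TPM in HT libraries and 76.2, 26.6 and 12.6 TPM in Control libraries. EIF2S3, the X-linked gamma subunit, had 59.2, 43.1 and 24.5 TPM in HT libraries and 96.4, 38.9 and 30.9 TPM in Control libraries. In each gene Control replicate 1 was the highest of the 6 libraries and the groups overlapped. EIF2S2 exceeded EIF2S1 by 14.5, 13.8 and 19.3 times in TPM in HT libraries and by 10.3, 16.1 and 25 times in Control libraries. The log2 fold change of EIF2S2 was -0.44 (SE 0.46, 95% interval -1.50 to 0.62), and it was 0.17 without Control replicate 1. EIF2S1, chosen after its values were seen, had the lowest log2 fold change of all 46 genes, -0.66 (SE 0.71). On the CPM scale, its highest library exceeded its lowest by 3.17 times among HT libraries and by 7.58 times among Control libraries.

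eIF2B, the exchange factor that reloads eIF2 with GTP, was encoded by 5 genes, each lower in mean TPM than any eIF2 subunit gene. EIF2B2 was the highest of the eIF2B genes in every library, at 7.23 to 19.8 TPM in HT libraries and 8.73 to 16.3 TPM in Control libraries. Its mean over the 6 libraries was 12.5 TPM, against 33.0 TPM for EIF2S1. EIF2B1 had 1.36 to 3.81 TPM, EIF2B3 1.51 to 3.18, EIF2B4 0.694 to 1.39 and EIF2B5 0.675 to 3.12 over the 6 libraries. EIF2B1 had 4.38, 3.30 and 5.56 CPM in HT libraries and 2.58, 3.93 and 4.08 CPM in Control libraries, with a log2 fold change of 0.32 (SE 0.30, 95% interval -0.38 to 1.02). Its groups overlapped. EIF2A and EIF2D encode separate proteins that can bring the initiator tRNA without eIF2. EIF2A had 32.7, 42.2 and 41.0 CPM in HT libraries and 44.7, 44.2 and 42.4 CPM in Control libraries. In CPM the HT libraries were all below the Control libraries, with HT replicate 2 and Control replicate 3 nearly meeting. In TPM the groups overlapped, with HT replicate 3 the highest library at 25.8 and Control replicate 3 at 25.7. The log2 fold change of EIF2A was -0.18 (SE 0.19, 95% interval -0.62 to 0.26). EIF2D had 0.513 to 1.04 TPM in HT libraries and 0.627 to 0.851 TPM in Control libraries.

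eIF3 is the scaffold of initiation on the small subunit, and 12 of its genes carried an EIF3 symbol in the table. Their levels were far from equal, although the subunits work in 1 complex. EIF3M was the highest in every library, at 965, 770.4 and 483 TPM in HT libraries and 1151, 771 and 554 TPM in Control libraries. EIF3B, a core subunit, had 5.13, 3.07 and 2.36 TPM in HT libraries and 2.46, 2.63 and 2.30 TPM in Control libraries. The highest of the 12 exceeded the lowest by 188 to 361 times in HT libraries and by 241 to 468 times in Control libraries. The lowest was EIF3B in every library except HT replicate 3, where it was EIF3F at 1.34 TPM. The annotation marks EIF3B as a long noncoding RNA gene, and whether its counts are those of the coding transcript was not tested. EIF3J, a loosely bound subunit, had 270.0 to 411 TPM in HT libraries and 273 to 420.5 TPM in Control libraries. EIF3E, EIF3H and EIF3K lay between 77.5 and 273 TPM over the 6 libraries, EIF3A, EIF3G, EIF3I and EIF3L between 10 and 65.5 TPM, and EIF3D and EIF3F between 1.34 and 5.66 TPM. A gene outside the symbol rule, LOC110260088, is annotated as eIF3 subunit C and had 30.8, 23.6 and 20.5 TPM in HT libraries and 22.1, 22.2 and 19.2 TPM in Control libraries. Of the other genes annotated as initiation factors without an EIF symbol, LOC100522498 (eIF5) had at most 0.957 TPM in HT libraries and 1.12 TPM in Control libraries, and LOC100624149 (eIF2 subunit 3) was at 0 in all.

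Of the 12 tested eIF3 genes, 0 were called, 1 (EIF3B) had a log2 fold change above 0 and 11 below 0, with a median of -0.24. Over all tested genes, 47.5% were above 0 and the median was -0.02. The 12 genes had the same order of replicates in both groups, so their signs are not independent. EIF3M had a log2 fold change of -0.28 (SE 0.40, 95% interval -1.21 to 0.64), which was 0.18 without Control replicate 1 and 0.01 without HT replicate 3. EIF3B had 16, 9.52 and 6.67 CPM in HT libraries and 9.08, 8.07 and 6.74 CPM in Control libraries. HT replicate 1 alone stood high, and the log2 fold change of 0.43 (SE 0.34, 95% interval -0.35 to 1.21) was the highest of the 46 genes. Without HT replicate 1 it was 0.02. EIF3I had 47.6, 42.1 and 26.7 CPM in HT libraries and 65.1, 43.9 and 37.7 CPM in Control libraries. Its groups overlapped, and its log2 fold change was -0.33 (SE 0.30, 95% interval -1.02 to 0.35).

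The eIF4A helicase group was led by EIF4A1 and EIF4A2, near-equal in level. EIF4A1 had 395, 257 and 157 TPM in HT libraries and 317, 289 and 182 TPM in Control libraries. EIF4A2 had 309, 246 and 157 TPM in HT libraries and 359, 228 and 164 TPM in Control libraries. EIF4A1 made up 50.1% to 56.1% of the TPM of both genes together in HT libraries and 46.9% to 55.8% in Control libraries. The log2 fold change of EIF4A1 was -0.09 (SE 0.40, 95% interval -1 to 0.83), with 0.02 under library totals, 0.24 without HT replicate 3 and 0.18 without Control replicate 1. EIF4A3, the helicase of the exon junction complex, had 41.1 to 69.2 TPM in HT libraries and 47.7 to 59.6 TPM in Control libraries. EIF4B and EIF4H, which stimulate the helicase, lay between 14.7 and 33.9 TPM over the 6 libraries.

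The cap-binding genes differed among themselves in how the 6 libraries ranked. EIF4E, the general cap-binding protein, had 209, 166 and 109.7 CPM in HT libraries and 357, 178 and 120.2 CPM in Control libraries, highest in Control replicate 1 and lowest in HT replicate 3. Its log2 fold change was -0.44 (SE 0.41, 95% interval -1.39 to 0.52), and it was 0.12 without Control replicate 1. EIF4E1B, the relative of EIF4E known in mouse and frog from the oocyte, had 10.5, 14.4 and 23.5 CPM in HT libraries and 8.23, 12.4 and 17 CPM in Control libraries. Here replicate 3 was the highest and replicate 1 the lowest in each group, and the groups overlapped. EIF4E1B made up 6.66%, 11.9% and 26.9% of the summed TPM of the 4 eIF4E genes in HT libraries and 3.20%, 10.1% and 19.5% in Control libraries. EIF4E2 had 12.6 to 46.0 TPM in HT libraries and 18.9 to 67.8 TPM in Control libraries, and EIF4E3 had 2 to 3.69 TPM in HT libraries and 1.35 to 3.01 TPM in Control libraries. The TPM of EIF4E2, EIF4E1B and EIF2B3 did not stay in a fixed ratio to the CPM between libraries (1.34, 1.12 and 1.88 times between the highest and the lowest ratio), so comparisons of TPM between libraries carry that spread.

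Among the scaffold genes, EIF4G2, whose product lacks the part that binds eIF4E, far exceeded the canonical EIF4G1 and EIF4G3. It had 358, 264 and 266 TPM in HT libraries and 347, 298 and 278 TPM in Control libraries, with a log2 fold change of -0.16 (SE 0.25, 95% interval -0.73 to 0.40), which was 0.05 without Control replicate 1. EIF4G1 had 4.86 to 7.41 TPM in HT libraries and 3.93 to 6.30 TPM in Control libraries. EIF4G3 had 12.8, 12.0 and 11.9 CPM in HT libraries and 10.5, 8.96 and 10.6 CPM in Control libraries. It was the only gene of the 46 with every HT library above every Control library, and its log2 fold change was 0.29 (SE 0.20, 95% interval -0.18 to 0.75, edgeR adjusted p = 0.999923).

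Inhibitors that compete with eIF4G for eIF4E were low to moderate. EIF4ENIF1, whose product carries eIF4E between compartments and represses bound mRNA, had 72.5, 78.4 and 100.3 CPM in HT libraries and 51.4, 86.8 and 98.3 CPM in Control libraries. The groups overlapped, Control replicate 1 was the lowest library, and the log2 fold change was 0.09 (SE 0.28, 95% interval -0.55 to 0.72). It was -0.15 without Control replicate 1 and -0.04 without HT replicate 3. EIF4EBP1 had 23.0 to 27.3 TPM in HT libraries and 16.8 to 25.9 TPM in Control libraries. EIF4EBP2 had 0.962 to 1.40 TPM in HT libraries and 0.801 to 1.17 TPM in Control libraries, and EIF4EBP3 had 0.199 to 0.287 TPM in HT libraries and 0 to 0.821 TPM in Control libraries.

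The factors of the last steps of initiation were abundant. EIF5B, the GTPase that lets the large subunit join, had 668, 829 and 945 TPM in HT libraries and 592, 826 and 948 TPM in Control libraries, second to EIF1 by its mean over all libraries. The levels of replicates 2 and 3 were near-equal between the groups, and the log2 fold change was -0.02 (SE 0.19, 95% interval -0.45 to 0.40). Its sign changed under library totals, under the 3 fits to FPKM or TPM, and without HT replicate 1 or Control replicate 3, with values between 0.06 and 0.08. EIF5, which makes eIF2 hydrolyse its GTP, had 424, 371 and 271 TPM in HT libraries and 416, 396 and 289 TPM in Control libraries. EIF6, which keeps the large subunit from joining too early, had 134, 115 and 67.1 CPM in HT libraries and 172, 122 and 103 CPM in Control libraries. HT replicate 3 was the lowest, the groups overlapped, and the log2 fold change was -0.33 (SE 0.31, 95% interval -1.04 to 0.38).

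EIF5A and EIF5A2 encode closely related proteins that carry the modified amino acid hypusine and help the ribosome through difficult peptide bonds. EIF5A2 had 125, 119.7 and 99.2 CPM in HT libraries and 206, 148 and 123 CPM in Control libraries. In CPM, HT replicate 1 lay just above Control replicate 3, so the groups overlapped by that pair. In TPM they did not, at 31.7, 30.5 and 27.7 in HT libraries and 44.0, 38.1 and 33.0 in Control libraries. EIF5A2 had the smallest unadjusted p of the 46 genes, 0.0857 in the edgeR test (adjusted p = 0.999923), with a log2 fold change of -0.47 (SE 0.24, 95% interval -1.02 to 0.08). EIF5A had 37.4, 23.3 and 23.8 CPM in HT libraries and 21.0, 20.7 and 23.7 CPM in Control libraries, with a log2 fold change of 0.37 (SE 0.24, 95% interval -0.19 to 0.93). HT replicate 1 alone stood high for EIF5A. In TPM, EIF5A2 over EIF5A came to 0.865, 1.35 and 1.17 in HT libraries and 2.79, 1.90 and 1.44 in Control libraries. Every HT library had a lower ratio than every Control library, with 1.35 and 1.44 as the nearest values. This pair was chosen after its values were seen and has no test, and the TPM of EIF5A varied by up to 1.12 times against its CPM between libraries. How often other genes or pairs of genes are without overlap in TPM was not computed, so no share stands beside these values.

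**Figure D3:**
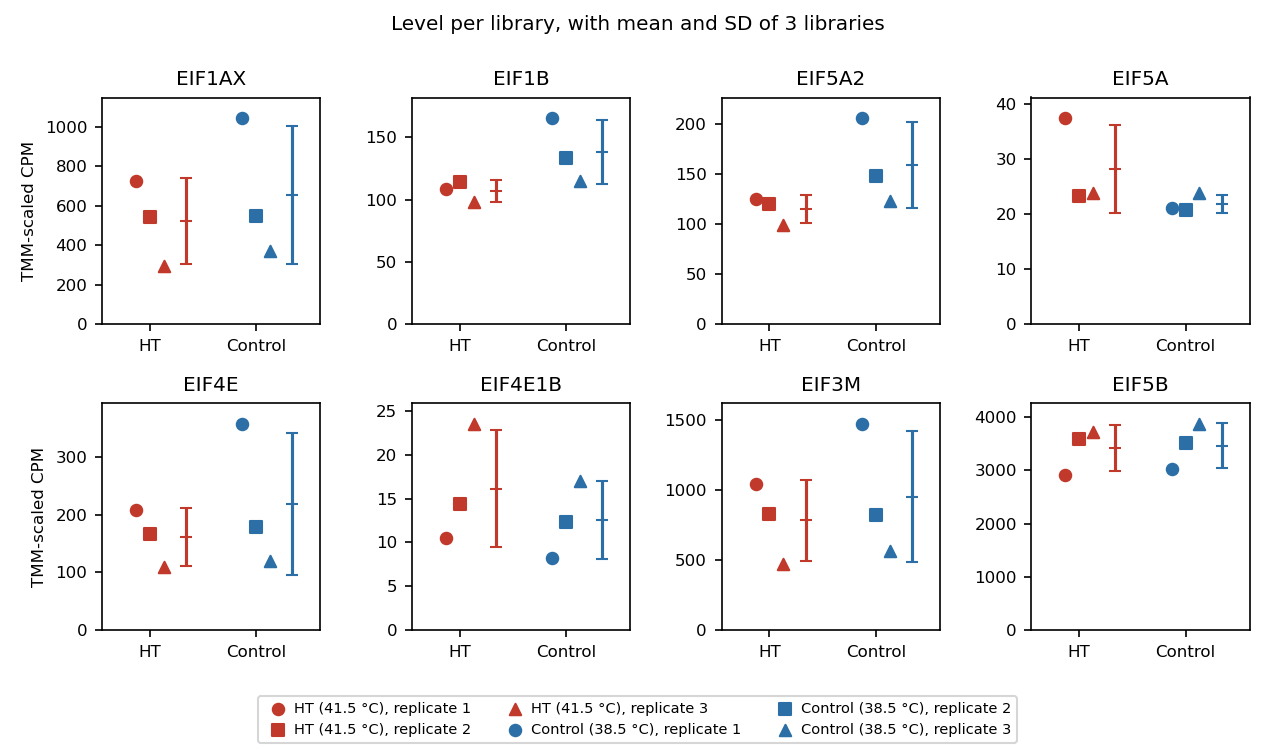
CPM with TMM-scaled library sizes of 8 initiation factor genes, with 1 point per library, HT left of Control, and bars for the mean and SD of the 3 libraries of each group. EIF1B is the only one of the 8 in which the groups do not meet, while EIF4E1B and EIF5B vary between libraries in the direction opposite to EIF1AX, EIF4E and EIF3M.

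The libraries of a group varied among themselves, and most of these genes varied in parallel. In CPM, the ratio of the highest to the lowest library had a median of 1.94 over the 46 genes among HT libraries and 1.86 among Control libraries, against 1.61 and 1.71 over all tested genes. In 31 of the 46 genes, the CPM of replicate 1 was higher than that of replicate 2, and that of replicate 2 higher than that of replicate 3, in both groups. The same order was found in 20.0% of all tested genes, against these 31. The 31 included all 12 eIF3 genes, all 3 eIF2 subunit genes, all 5 of the eIF4A helicase group, EIF1AX, EIF5 and EIF6. The reverse order in both groups held for 4 genes, EIF4E1B, EIF4E3, EIF4ENIF1 and EIF5B, against 16.9% of all tested genes. In TPM, 28 of the 46 genes had the first order and 5 the reverse. These genes share the same 6 libraries, and the order was seen in the data and is given as a description with no test.

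Other genes moved with this order. The 77 tested ribosomal protein genes had a median of 6.89, 6.33 and 5.47 log2 CPM in HT libraries and 7.46, 6.34 and 5.64 log2 CPM in Control libraries. Of the 8 oocyte and early embryo markers, 3 (OOEP, GDF9 and ZAR1) had the reverse order of TPM in both groups, 0 had the order of the 31 genes, and 5 (ZP3, DPPA3, NLRP5, POU5F1 and BMP15) had neither. Over all tested genes, in CPM, the reverse order held for 16.9% and the order of the 31 genes for 20.0%. OOEP, a component of the subcortical maternal complex, had 177, 268 and 387 TPM in HT libraries and 171, 277 and 369.8 TPM in Control libraries. GDF9, a growth factor of the oocyte, had 105, 121 and 145 TPM in HT libraries and 84.0, 120.4 and 144 TPM in Control libraries. DPPA3, a maternal protein that in mouse protects DNA methylation in the early embryo and the most abundant of the 8, had 1497, 1710 and 1448 TPM in HT libraries and 2287, 1934 and 1658 TPM in Control libraries, lowest in replicate 3 of each group. BMP15, another growth factor of the oocyte, had 520.1, 447 and 495 TPM in HT libraries and 348, 518 and 441 TPM in Control libraries. The part of these differences between libraries in the order of the initiation factor genes was not tested. In bulk libraries, fewer cells with a transcript and less of it per cell cannot be told apart. All levels are those of RNA captured by its poly(A) tail on oligo(dT) beads, and tail length was not measured.

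**Figure D4:**
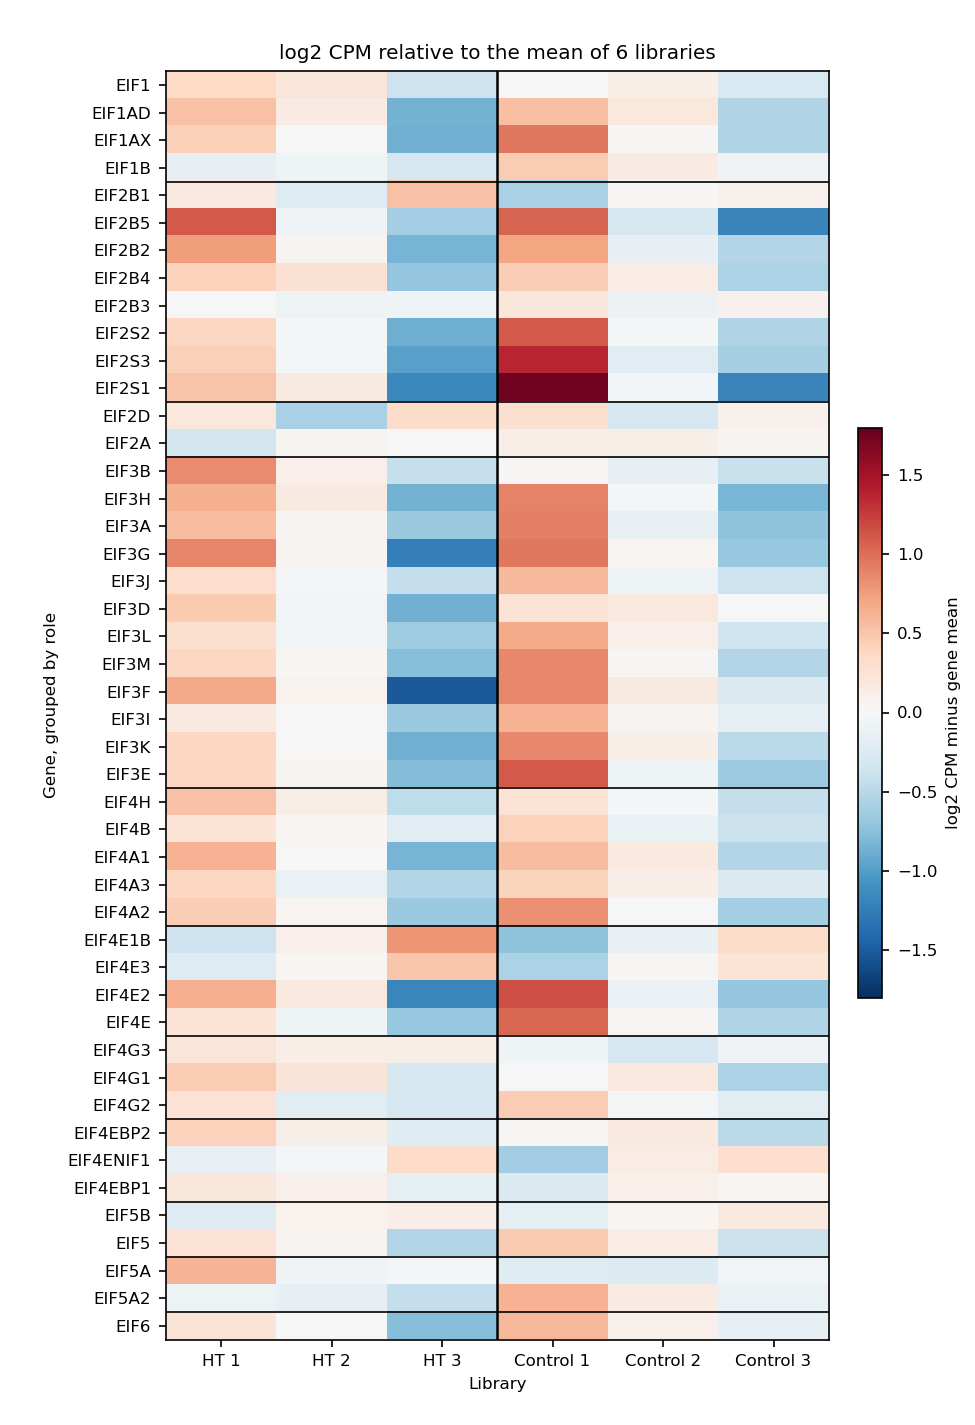
Log2 CPM of the 46 tested initiation factor genes by role in the 6 libraries, as the difference from each gene's mean over the libraries, with HT replicates 1 to 3 on the left and Control replicates 1 to 3 on the right. Replicate 1 is high and replicate 3 low in both groups for 31 of the 46 genes, and the reverse holds for EIF4E1B, EIF4E3, EIF4ENIF1 and EIF5B.

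The rest of the translation machinery gave a like picture. Of 53 listed genes for eIF2 kinases and phosphatases, poly(A)-binding proteins, regulators, reinitiation, hypusine synthesis, elongation, termination and mitochondrial initiation, 52 were in the table and 51 were tested. With edgeR 0 were called and 0 had an unadjusted p below 0.05 (1.85% of all tested genes). The log2 fold change was above 0 for 16 and below 0 for 35, where 47.5% of all tested genes were above 0. Its median was -0.08, against -0.02 over all tested genes. The 4 with the smallest unadjusted p were PPP1R15A, MKNK2, MTOR and BZW1. PPP1R15A, the stress-induced subunit that directs a phosphatase to eIF2 alpha, had 10.4, 6.64 and 8.40 CPM in HT libraries and 4.92, 6.76 and 5.71 CPM in Control libraries, with a log2 fold change of 0.55 (SE 0.26, 95% interval -0.05 to 1.14). HT replicate 2 lay below Control replicate 2, so the groups overlapped. MKNK2, a kinase that phosphorylates eIF4E, had 11.2, 7.19 and 6.70 CPM in HT libraries and 6.23, 4.96 and 6.08 CPM in Control libraries. The groups did not overlap, and the log2 fold change was 0.54 (SE 0.27). Of the 51 genes, 2 had every HT library above every Control library (3.66% of all tested genes). The reverse held for 2 (4.05% of all tested genes). MTOR, the kinase that acts on the eIF4E inhibitors, had a log2 fold change of -0.58 (SE 0.33) at 0.883 to 1.39 CPM in HT libraries and 1.38 to 2.21 CPM in Control libraries. BZW1, a mimic of eIF5, had 467, 386 and 212 CPM in HT libraries and 888, 504 and 331 CPM in Control libraries, in the same order of replicates as the 31 genes, with a log2 fold change of -0.69 (SE 0.41).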

How the data were processed

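Read counts per gene, deposited by the authors as whole numbers and not normalized, per the file headers, were the basis of the main test. The FPKM and TPM values were computed and deposited by the authors, per the file headers. TPM gave levels between genes, and FPKM served only in an alternative and in matching columns to samples. The build Sscrofa11.1 and the tools StringTie 2.1.3b, HISAT2 2.1.0, Trimmomatic 0.38, Bowtie2 and HISAT stand in the submitters' processing notes. For the counting tool, a name was not given in the sources used here. SMART-Seq v4 libraries carry no strand, and 11 of the 48 genes overlap another counted gene on the opposite strand, so reads of such pairs cannot be told apart. Rows without a symbol (24) held 0.527% to 0.658% of the counts of a library.

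edgeR 4.0.16 in R 4.3.3 was fitted to all genes (TMM scaling, default expression filter, group as the single term, Benjamini-Hochberg adjustment, threshold 0.05) and tested on simulated data. The simulated counts had the same spread setting for every gene and no order of replicates shared by the groups. They therefore do not show how the test performs on libraries that vary as these do. Alternatives were other scalings, filters, DESeq2 1.42.0, limma 3.58.1 on log2(value + pseudocount), a replicate block, summed overlapping genes and leaving out each library. The genes and lists were chosen with earlier results of these data known. Fold changes with errors are given for EIF1AX, the 8 genes with the smallest unadjusted p and the most abundant gene of each role. They are also given for the 4 listed other translation genes with the smallest unadjusted p. EIF2S1, with the lowest log2 fold change, was added after its values were seen. Total counts per library were 28114005 to 30079385.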

Additional observations from a re-analysis of the deposited data

How the results depend on the processing

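No initiation factor gene was called under any of the 16 other settings run, which left out, rescaled, refiltered or retested the same libraries. Over all genes, 1 was called with no filter on low counts, 5 with DESeq2 and 3 with the replicate block. Deviations from the group means correlated between libraries of the same number at 0.52, 0.01 and 0.59 over 16056 genes for replicates 1, 2 and 3 (0.78, -0.05 and 0.86 over the 46 genes). HT replicates 1 and 3 correlated best with their own number and HT replicate 2 with Control replicate 1. The deviations of a group sum to 0 over its libraries, so these correlations are not independent and cannot decide whether the numbers mark pairs. Because no label ties the numbers, the libraries were not treated as paired. An order of replicates shared by the groups therefore stays in the error of the main test. Without Control replicate 3, 1 of the 46 genes had an unadjusted p below 0.05, against 3.16% of all tested genes. With the replicate block, 8 of the 46 genes had an unadjusted p below 0.05 in the edgeR test. That is a larger share than among all tested genes (1485 of 16056, 9.25%), and the difference was not tested. The smallest adjusted p of a named gene in that fit was 0.413 (EIF5A2). Leaving out 1 library at a time gave 11 to 35 genes above 0 and a median log2 fold change of -0.41 to 0.17. The same values over all tested genes were not computed for those fits. Of 291 other values for the 18 named genes, 17 changed sign, in 8 genes. Leave-one-out ranges of those genes were -0.64 to 0.19 for EIF1AX, -0.75 to 0.17 for EIF2S2, -0.56 to 0.18 for EIF3M, -0.49 to 0.24 for EIF4A1, -0.74 to 0.12 for EIF4E, -0.35 to 0.052 for EIF4G2, -0.15 to 0.28 for EIF4ENIF1 and -0.11 to 0.076 for EIF5B. Under library totals EIF4A1 was at 0.024 and EIF5B at 0.063, and with limma EIF5B was at 0.062 on log2(FPKM + 1), 0.059 on log2(TPM + 1) and 0.059 on log2(TPM + 0.1). The cause of these changes was not tested. The other 10 named genes kept their sign throughout, though some came near 0. Without HT replicate 1, EIF1 was at 0.003, EIF3B at 0.023 and EIF5A at 0.11. EIF1AY and EIF4EBP3 had too few reads for the test.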
